A study of Mus musculus with 6 samples.

Results

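Long intergenic noncoding RNAs (lincRNAs) expressed in colitis-associated colon tumors of mice with and without STING in myeloid cells were examined. The set holds the 250 genes of type lincRNA with a mean of at least 1 FPKM (fragments scaled to gene length and library size) over 6 tumors, out of 5559 lincRNA genes and 54532 genes in all. A count of any size was present for 2409 lincRNA genes, and 254 reached the level limit. Imprinted H19, the X-linked Xist and Gm26617 and the Y-linked Gm29650 were left out. The 250 lincRNAs were thus chosen by level, and their levels are given as a description.

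The tumors came from C57BL/6N mice given the carcinogen AOM and 3 cycles of DSS, an agent that injures the colon epithelium. The Tmem173fl/fl group (3 tumors, titled WT by the submitters) carried floxed alleles of Tmem173, the gene of STING, without Cre. The Tmem173iΔmye group (3 tumors, titled CRE) carried the same floxed alleles and Lyz2-Cre ert2, a Cre that acts in Lyz2-expressing myeloid cells once tamoxifen (TAM) is given. By the study's methods TAM was given after the DSS cycles in these groups. The age at killing was not given in the sources used here. RNA was taken from whole tumor, in which the recombined cells are a minority of unknown size. The question addressed by the pair of groups is what loss of myeloid STING after tumor formation does to the tumor.

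LincRNAs are transcribed by RNA polymerase II and mostly spliced and polyadenylated like mRNAs, but are annotated as not coding for protein. Some act as nuclear scaffolds, some only carry snoRNA or miRNA genes that are cut out of their introns or exons, and many share a promoter region with a coding gene on the other strand. Most have no known function, and in tissue they are often restricted to a few cell types, so that bulk levels follow the cell makeup. In bulk tumors, fewer cells of a type and less RNA per cell cannot be told apart.

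Sequences of the lincRNAs on which the results turn are shown here. AL805899.2 had the lowest p-value of the set. It spans chr4:88995118-89039192 in GRCm38 (minus strand), and its only annotated transcript has 2 exons and 1332 bases. The first exon, at chr4:89039022-89039192 in GENCODE M21, is shown whole in lower case.
AL805899.2: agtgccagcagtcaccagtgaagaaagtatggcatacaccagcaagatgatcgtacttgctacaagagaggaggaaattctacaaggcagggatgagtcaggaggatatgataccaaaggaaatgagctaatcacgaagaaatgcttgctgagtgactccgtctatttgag

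4933406C10Rik had the next lowest p-value and begins back to back with Sypl, a coding gene for a synaptophysin-like membrane protein. Its RefSeq start region on the minus strand at chr12:32953740-32954039 (GRCm38.p6) is shown, with capitals for the 101 bases that separate the ends of these genes.
4933406C10Rik: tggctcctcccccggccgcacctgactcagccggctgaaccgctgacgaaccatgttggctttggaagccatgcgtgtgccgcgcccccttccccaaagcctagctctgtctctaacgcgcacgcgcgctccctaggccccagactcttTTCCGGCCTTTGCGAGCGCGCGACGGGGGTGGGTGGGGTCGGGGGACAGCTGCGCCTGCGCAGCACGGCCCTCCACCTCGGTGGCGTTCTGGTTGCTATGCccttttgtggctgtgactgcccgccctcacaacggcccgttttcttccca

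AW112010 was the most abundant lincRNA. Its RefSeq start region, on the minus strand at chr19:11050517-11050816 (GRCm38.p6), is shown with capitals for the 50 bases after the start. Gm36107 had the largest positive fold change and, over all 6 tumors, the highest correlation with interferon-response genes, though not without Tmem173iΔmye replicate 1. Its start region, on the plus strand at chr14:106265011-106265310 (GRCm38.p6), is shown with capitals for a match to the core of interferon-stimulated response elements (GAAA, any 2 bases, GAAA), which begins 218 bases before the start.
AW112010: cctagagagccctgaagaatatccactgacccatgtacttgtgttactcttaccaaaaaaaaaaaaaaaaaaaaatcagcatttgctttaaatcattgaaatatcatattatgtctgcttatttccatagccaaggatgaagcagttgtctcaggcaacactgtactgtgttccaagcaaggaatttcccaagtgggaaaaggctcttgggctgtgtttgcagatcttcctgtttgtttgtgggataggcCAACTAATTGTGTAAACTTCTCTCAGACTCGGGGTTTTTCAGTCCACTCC
Gm36107: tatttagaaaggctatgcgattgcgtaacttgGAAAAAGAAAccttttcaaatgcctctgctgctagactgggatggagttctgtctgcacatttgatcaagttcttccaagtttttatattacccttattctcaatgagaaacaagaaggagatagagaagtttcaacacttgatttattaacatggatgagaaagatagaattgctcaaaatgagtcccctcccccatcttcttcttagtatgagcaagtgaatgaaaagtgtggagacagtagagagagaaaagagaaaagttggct

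On either strand, the interferon-response core was present in 3.45% of the 32544 different RefSeq start regions of the same length and in 4 of 162 start regions of 111 of these lincRNAs (2.47%). TTCNNNGAA, the core of STAT sites and its own reverse complement, was in 8.33% of all and in 14 of the 162 (8.64%). The motifs can share letters, and 148 of all regions held both. AW112010 had neither match in this window. These are matches of letters, and no binding was measured.

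For some of the 9 lincRNAs that hold miRNA genes, selected mature miRNAs of RefSeq are shown with the seed (bases 2 to 8) in capitals. The seed sets which mRNAs are recognized. Those of the other hosts are not shown. Mir17hg carries 6 miRNAs, of which miR-17-5p and miR-20a-5p share a seed and miR-19a-3p and miR-19b-3p share another. AL805899.1 carries miR-31, 4833445I07Rik carries miR-191 and miR-425, and Mir142hg carries miR-142. Reads of poly(A) RNA come from the host transcripts, and mature miRNAs were not measured.
miR-17-5p: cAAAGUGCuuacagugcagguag
miR-20a-5p: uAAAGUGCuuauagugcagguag
miR-19a-3p: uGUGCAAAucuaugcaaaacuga
miR-19b-3p: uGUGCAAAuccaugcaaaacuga
miR-18a-5p: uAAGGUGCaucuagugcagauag
miR-92a-3p: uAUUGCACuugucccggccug
miR-31-5p: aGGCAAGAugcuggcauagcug
miR-191-5p: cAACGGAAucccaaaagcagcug
miR-425-5p: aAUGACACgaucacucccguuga
miR-142a-5p: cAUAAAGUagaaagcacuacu
miR-142a-3p: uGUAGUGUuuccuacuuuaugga

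For the snoRNA hosts, 60 bases around the RefSeq start are shown (GRCm38.p6, 30 on either side), with capitals for a run of at least 5 pyrimidines that begins with C and touches the 20 bases around the start. Such a run right at the start is typical of mRNAs of the translation machinery and of snoRNA host genes. It was found in 4 of the 7 host start regions of RefSeq, which are those shown, and in 34.9% of all start regions. Snhg18 lies at chr15:32244633-32244692 (minus strand), Snhg12 at chr4:132308648-132308707 (plus), 2700038G22Rik at chr5:23850567-23850626 (plus) and Snhg10 at chr12:105032250-105032309 (minus).
Snhg18: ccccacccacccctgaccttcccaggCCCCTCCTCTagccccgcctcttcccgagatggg
Snhg12: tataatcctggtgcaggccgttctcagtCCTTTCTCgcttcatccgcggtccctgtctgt
2700038G22Rik: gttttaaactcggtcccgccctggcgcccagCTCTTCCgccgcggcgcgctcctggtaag
Snhg10: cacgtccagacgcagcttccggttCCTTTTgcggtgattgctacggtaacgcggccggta

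Between 15329810 and 16533732 reads were counted on genes per tumor. Tmem173 itself had 1748, 2911 and 1705 counts in the Tmem173fl/fl tumors and 2291, 2245 and 1953 in the Tmem173iΔmye tumors, and the groups overlapped. Epithelial markers summed to between 5521 and 6714 FPKM in each tumor, and none of the 9 marker lists had a gene at 0 in all tumors. Y-linked genes had 2655 counts or more in 1 Tmem173fl/fl and 2 Tmem173iΔmye tumors and 2 or fewer in the others, so the sexes were not balanced. Nothing in the sources says which tumors came from separate cages or days, and p-values measure the spread between these 6 tumors.

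Most of the lincRNAs were weakly expressed and little studied. The median level was 2.33 FPKM, against 7.50 FPKM for the 13105 coding genes tested, 230 of the 250 stayed under 10 FPKM and 109 under 2. Names made of Gm or Rik numbers or of a clone were carried by 219. Their median length was 1263 bases, against 4194 for the coding genes. One exon was annotated for 32 of them, 2 exons for 100 and more for 118.

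Despite the word intergenic, 40 of the lincRNAs overlapped a protein-coding gene in the table, 124 lay within 5 kb of one, and 49 shared exonic bases with another gene. The library kit is not stated to mark strand, so reads in shared bases cannot be assigned to one gene with certainty. Of the 250, 10 had a transcript with a near-identical copy elsewhere (at least 97% identity over at least 50% of its length), and their counts are uncertain. Gm10076, at 53.3 FPKM, matched the ribosomal protein gene Rpl41 with 99.5% identity over 383 of its 384 bases. Some genes of the set carry names of coding genes or pseudogenes (Zfp469, Lsmem2, Prr33, Tmem250-ps).

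A few RNAs took a large part of the lincRNA reads. The 250 genes took 0.501, 0.343 and 0.432% of all counts in Tmem173fl/fl replicates 1, 2 and 3 and 0.440, 0.394 and 0.392% in Tmem173iΔmye replicates 1, 2 and 3. The group means were 0.425% ± 0.079 and 0.408% ± 0.027 (SD, n = 3), and the groups overlapped. Neat1, Malat1, Gm42047, Gm26917 and 2900097C17Rik together held between 49.6 and 60.1% of the lincRNA counts of a tumor. Without Neat1 the means were 0.331% ± 0.033 and 0.314% ± 0.014 (SD, n = 3).

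AW112010, an RNA known from stimulated immune cells, was the most abundant per length, at a mean of 179.1 FPKM. It had 181, 76.6 and 117 FPKM in the Tmem173fl/fl tumors and 465, 116 and 120 FPKM in the Tmem173iΔmye tumors. Replicate 1 of Tmem173iΔmye was thus far above the other 5 tumors, while the other two Tmem173iΔmye tumors lay within the Tmem173fl/fl range. On the log2 scale, Tmem173iΔmye differed from Tmem173fl/fl tumors by 0.90 (SE 0.57), with an adjusted p of 0.753 (edgeR, Benjamini-Hochberg), and by -0.09 without that tumor. In the same tumor, neutrophil markers summed to 479 FPKM, against 39.7 to 147.5 FPKM in the others, and T and NK cell markers to 18.1 FPKM, against 6.06 to 13.0. Markers of macrophages and dendritic cells did not stand out there, at 43.5 FPKM against 33.4 to 51.3 FPKM in the others. The part of any of these cells in the level of AW112010 was not tested.

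Malat1, an abundant nuclear RNA of splicing speckles, had 10612, 10669 and 8441 counts in the Tmem173fl/fl tumors and 8557, 7516 and 6405 in the Tmem173iΔmye tumors. Only the lowest Tmem173fl/fl and the highest Tmem173iΔmye tumor crossed over. Its log2 fold change was -0.42 (SE 0.19; edgeR, adjusted p = 0.742). Neat1, the scaffold of paraspeckles and a neighbour of Malat1 on chromosome 19, had 20314, 4804 and 19178 counts against 18133, 14375 and 12712. Replicate 2 of Tmem173fl/fl was the lone low tumor, and the log2 fold change was 0.03 (SE 0.46) with it and -0.37 without it.

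Gm26917 lies at chr17:39843013-39846341 (plus strand), next to Gm42418, in a stretch known to collect reads of ribosomal RNA. It had 4254, 6717 and 2401 counts in the Tmem173fl/fl tumors and 2093, 2418 and 4177 in the Tmem173iΔmye tumors. The groups overlapped, and the log2 fold change was -0.66 (SE 0.42). Mitochondrial genes took 3.23, 3.52 and 2.50% of the counts of the Tmem173fl/fl tumors and 2.36, 2.72 and 2.84% of the Tmem173iΔmye tumors, with the lowest and highest shares in the same tumors as the lowest and highest counts of Gm26917. The part of RNA quality in Gm26917 was not tested.

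2900097C17Rik, the mouse counterpart of NORAD, a cytoplasmic RNA that binds Pumilio proteins, was among the steadiest. It ranged from 41.8 to 55.5 FPKM over the 6 tumors, and its log2 fold change was -0.05 (SE 0.15). It is one of the 10 with a near-identical copy, Gm7292, and its counts are uncertain for that reason. Tmem250-ps ranged from 24.2 to 34.0 FPKM (0.08, SE 0.16). Gm42047 was the least steady, with 7762, 2071 and 737 counts in the Tmem173fl/fl tumors and 6483, 3666 and 5510 in the Tmem173iΔmye tumors. It overlaps the long coding model Gm20388 and has a near-identical copy in Gm48362, and its log2 fold change was 0.53 (SE 0.73).

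The limit of 1 FPKM cut through a dense range of levels. Gm13780 (1.02), Gm20467 (1.02) and Gm20681 (1.01) were just inside, and Gm12847 (0.996), Gm11110 (0.990) and B230344G16Rik (0.987) just outside. In 24 of the 250, one group's mean was under 1 FPKM, so that they passed through the other group alone.

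None of the 250 lincRNAs had an adjusted p under 0.05 in the comparison of Tmem173iΔmye with Tmem173fl/fl tumors. By edgeR this was 0 of 250, as it was 0 of the 16426 genes tested (0.0%), and the smallest adjusted p was 0.742. An unadjusted p under 0.05 was found for 22 lincRNAs (8.8%), 12 higher and 10 lower in Tmem173iΔmye, against 6.14% of all genes tested (3.23% higher and 2.9% lower). DESeq2 on the same counts gave 1 lincRNA with an adjusted p under 0.05 (AL805899.2, 0.0231), against 27 of all genes (0.164%), and limma on log2(FPKM + 1) and limma voom gave 0. The median log2 fold change was -0.02, against -0.00 over all genes tested, and 119 of the 250 (47.6%) were above 0, against 49.4%.

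By the threshold of the study (a log2 fold change of 1 or more in size, at an unadjusted p of 0.05 or less), 7 lincRNAs were higher and 2 lower in Tmem173iΔmye tumors. The shares were 2.8% and 0.8%, against 1.26% and 0.864% of all genes tested (2.12% in both directions). Of these 9, 6 (AL805899.2, Gm20703, Platr27, Gm36107, Lncbate1 and BC049987) had a group mean under 1 FPKM and passed the level limit through the group in which they were higher, and 7 stayed under 100 counts in every tumor. The groups did not overlap for 37 lincRNAs (14.8%), against 12.5% of all genes, 17 of them higher (6.8% against 6.03%) and 20 lower (8.0% against 6.47%). With sex as a covariate, 14 lincRNAs (5.6%) had an unadjusted p under 0.05, against 3.37% of all genes tested in the same fit.

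**Figure D1:**
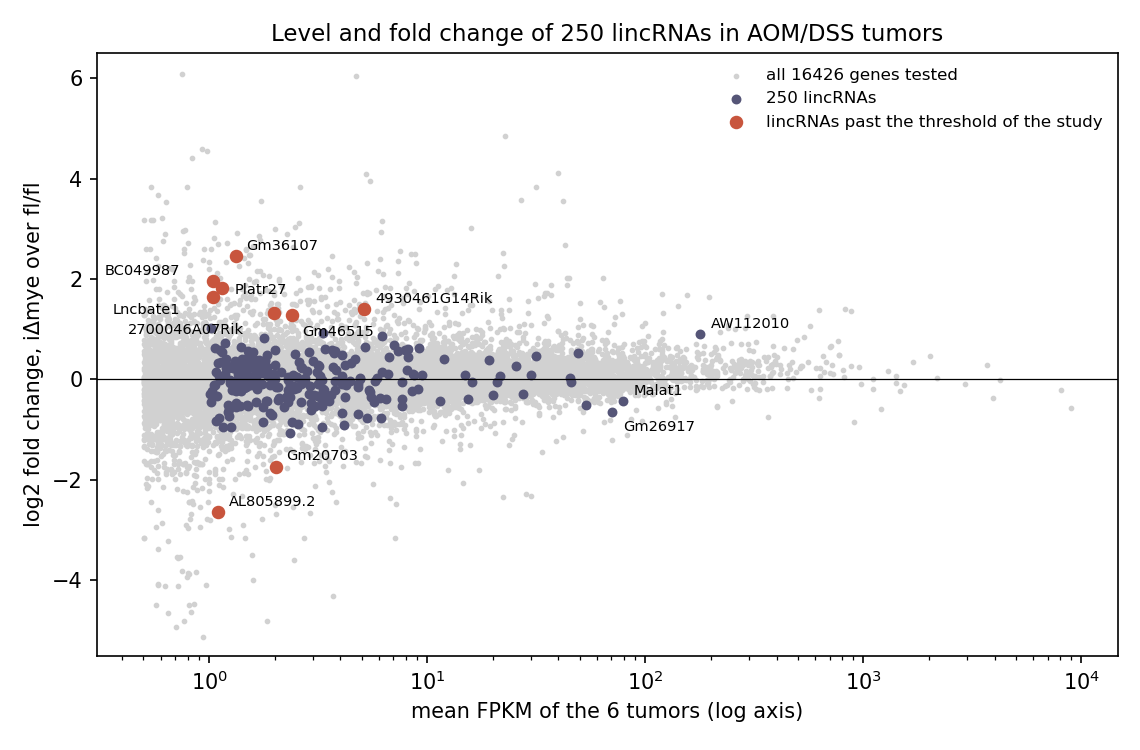
Mean FPKM of the 6 tumors (log axis) against the log2 fold change of Tmem173iΔmye over Tmem173fl/fl for the 250 lincRNAs (dark), those past the threshold of the study (red) and all 16426 genes tested (grey). The 9 red points lie under 10 FPKM, while above 10 FPKM no lincRNA went past 0.90 in either direction.

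AL805899.2 stood at the low end of the fold changes. It had 27, 29 and 66 counts in the Tmem173fl/fl tumors and 7, 6 and 6 in the Tmem173iΔmye tumors. Its mean level was 1.90 FPKM in Tmem173fl/fl and 0.299 FPKM in Tmem173iΔmye tumors, so that it entered the set only through the group in which it was high, and its difference is a description rather than support. Every Tmem173iΔmye tumor was below every Tmem173fl/fl tumor, and the difference was -2.65 on the log2 scale (SE 0.48, unadjusted p = 0.000595, adjusted p = 0.742 from edgeR). Leaving out any tumor kept it between -2.86 and -2.18. The gene has no known function. The nearest gene of the set on the same strand is AL805899.1, the host of miR-31, an miRNA of intestinal epithelium. AL805899.1 had 425, 157 and 1011 counts against 514, 482 and 286, with groups that overlapped, and a log2 fold change of -0.29 (SE 0.55), which was 0.51 without Tmem173fl/fl replicate 3. The nearest coding gene, Mtap, had a log2 fold change of -0.21.

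Gm20703, near the TGF-beta-induced homeobox gene Tgif1, was the other lincRNA past the threshold in this direction. It had 19, 8 and 31 counts against 4, 6 and 7, a log2 fold change of -1.74 (SE 0.58; edgeR, adjusted p = 0.742). The lowest Tmem173fl/fl tumor was 1 count above the highest Tmem173iΔmye tumor.

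Among the 7 in the other direction, the groups did not overlap for Platr27, Gm36107, 2700046A07Rik, Gm46515 and Lncbate1. Platr27, named as a pluripotency-associated transcript, had 5, 3 and 7 counts in the Tmem173fl/fl tumors and 26, 12 and 16 in the Tmem173iΔmye tumors. Its log2 fold change was 1.82 (SE 0.53; edgeR, adjusted p = 0.742). Gm36107 had 5, 1 and 2 counts against 30, 10 and 6, a log2 fold change of 2.45 (SE 0.84). Both genes were highest in Tmem173iΔmye replicate 1, and without it Gm36107 was at 1.53.

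2700046A07Rik had 56, 19 and 58 counts against 73, 162 and 98 (1.32, SE 0.47), and Gm46515 had 7, 6 and 6 against 12, 21 and 14 (1.28, SE 0.46). Both were highest in Tmem173iΔmye replicate 2. Lncbate1, known from brown fat, lies within Zfhx3 on the other strand. It had 8, 8 and 3 counts against 19, 10 and 32, a log2 fold change of 1.64 (SE 0.62), with the highest value in Tmem173iΔmye replicate 3.

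The remaining pair past the threshold, 4930461G14Rik and BC049987, had overlapping groups. 4930461G14Rik had 40, 43 and 29 counts against 190, 75 and 36, and BC049987 had 6, 14 and 9 against 85, 9 and 21. Replicate 1 of Tmem173iΔmye set both values, since without it the log2 fold changes went from 1.40 to 0.55 and from 1.95 to 0.61.

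The following 3 lincRNAs were chosen after their values were seen, as those with the lowest unadjusted p after AL805899.2. 4933406C10Rik had 218, 133 and 186 counts in the Tmem173fl/fl tumors and 332, 374 and 279 in the Tmem173iΔmye tumors, without overlap (log2 fold change 0.86, SE 0.22, adjusted p = 0.742 from edgeR). Its divergent partner Sypl, across the 101 bases shown in capitals above, had a log2 fold change of 0.15. Gm10451 had 242, 288 and 325 counts against 403, 452 and 473 (0.63, SE 0.16), and Gm45889 had 310, 442 and 502 against 225, 274 and 242 (-0.77, SE 0.20). For both, the groups stood apart with no tumor far from its group.

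**Figure D2:**
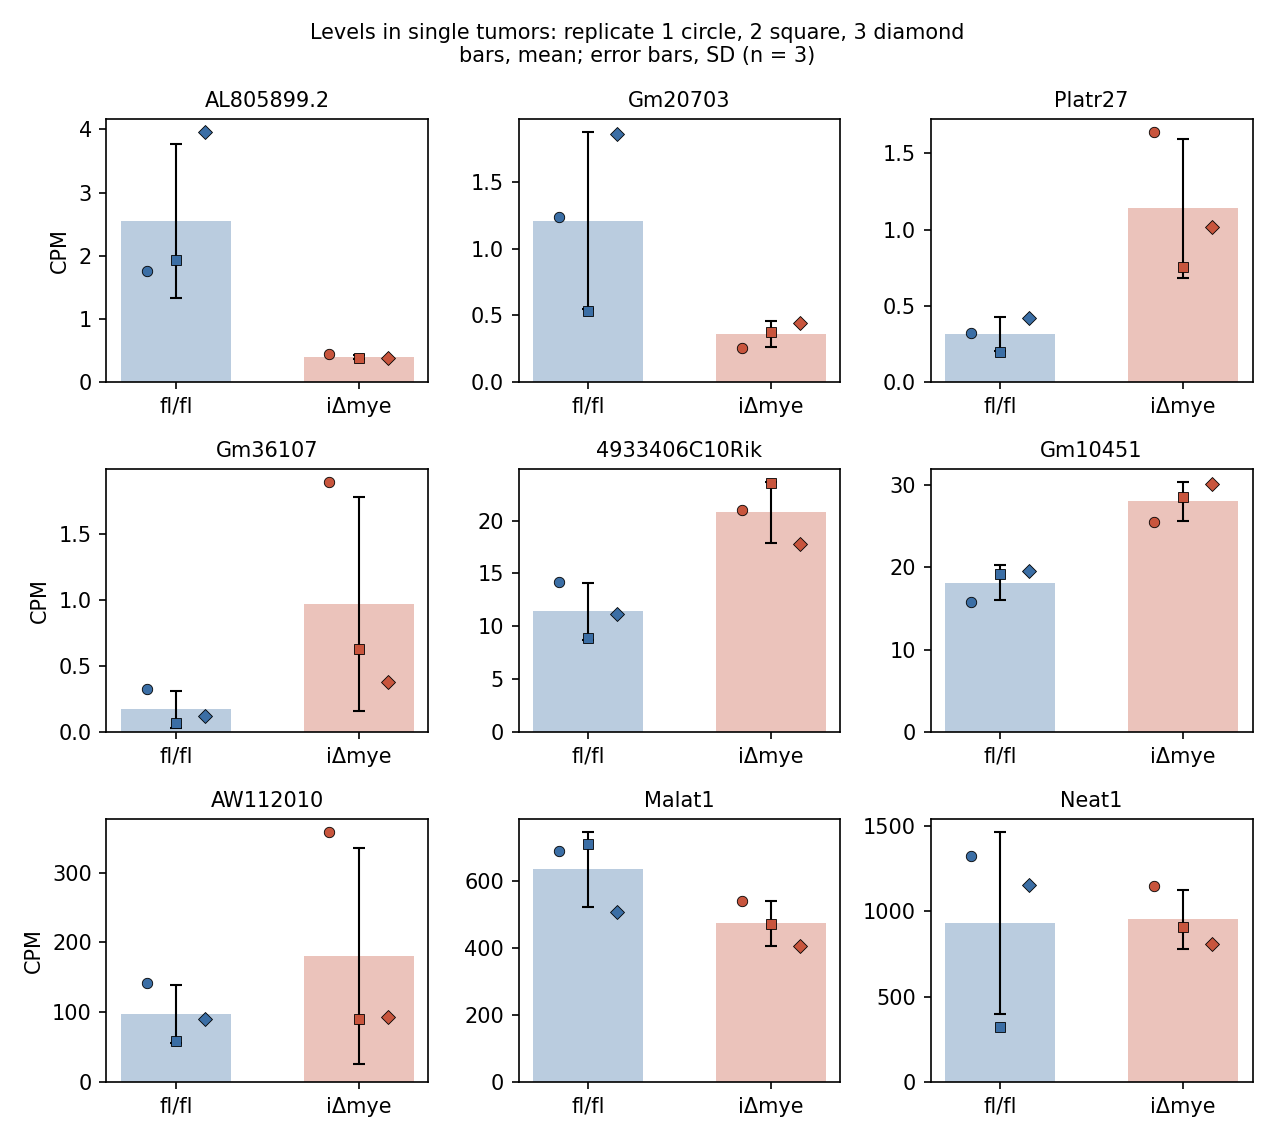
CPM (counts scaled to library size by TMM) of 9 lincRNAs in each tumor, with bars for the mean and error bars for the SD (n = 3). The groups do not overlap in the first 6 panels, from AL805899.2 to Gm10451, and overlap for AW112010, Malat1 and Neat1.

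Hosts of snoRNA, scaRNA or snRNA genes shared a low tumor. These are genes with such a small-RNA gene within their span on the same strand, and whether it lies in an intron was not checked. Many snoRNAs and scaRNAs guide the modification of ribosomal or spliceosomal RNA. The set holds 9 (Epb41l4aos, Snhg6, Snhg18, Snhg20, Snhg12, 2900076A07Rik, 2700038G22Rik, Snhg10 and Gm29865), and 8 of them were lowest in Tmem173fl/fl replicate 2. Only Gm29865 was lowest elsewhere. Summed, they reached 116, 41.8 and 99.7 CPM in the Tmem173fl/fl tumors and 152, 112 and 96.1 CPM in the Tmem173iΔmye tumors. One Tmem173fl/fl tumor was thus well below the other 5, which ranged from 96.1 to 152 CPM.

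In single genes the gap was wide. Snhg20 had 390, 73 and 379 counts against 518, 445 and 302. Epb41l4aos, at 31.6 FPKM the most abundant host, had 258, 59 and 228 against 338, 228 and 189. Snhg12, which carries snoRNA genes of both classes, had 286, 93 and 240 against 467, 265 and 269.

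Snhg18 had 191, 87 and 178 counts against 305, 218 and 175, and Snhg6 had 410, 180 and 319 against 517, 354 and 325. Both were also highest in Tmem173iΔmye replicate 1, as 5 of the 9 hosts were. The median log2 fold change of the 9 was 0.47, with 7 above 0, none had an unadjusted p under 0.05, and the median was 0.14 without Tmem173fl/fl replicate 2 and 0.20 without Tmem173iΔmye replicate 1.

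The same tumor was low for host genes outside the set. Of 23 tested genes of a list of known small-RNA hosts, 18 were lowest in Tmem173fl/fl replicate 2, and of its 15 genes that are not in the set (among them Gas5, Snhg1 and Zfas1, annotated as processed transcripts), 11 were. Gas5 had 2053, 852 and 2039 counts against 2998, 1958 and 1845. Genes of ribosomal proteins summed to 39028, 27970 and 31931 CPM in the Tmem173fl/fl tumors and 52465, 36040 and 34715 CPM in the Tmem173iΔmye tumors. They were lowest in Tmem173fl/fl replicate 2 for 59 of 76 genes and highest in Tmem173iΔmye replicate 1 for 72, and their range, as a fold, was narrower than that of the hosts.

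**Figure D3:**
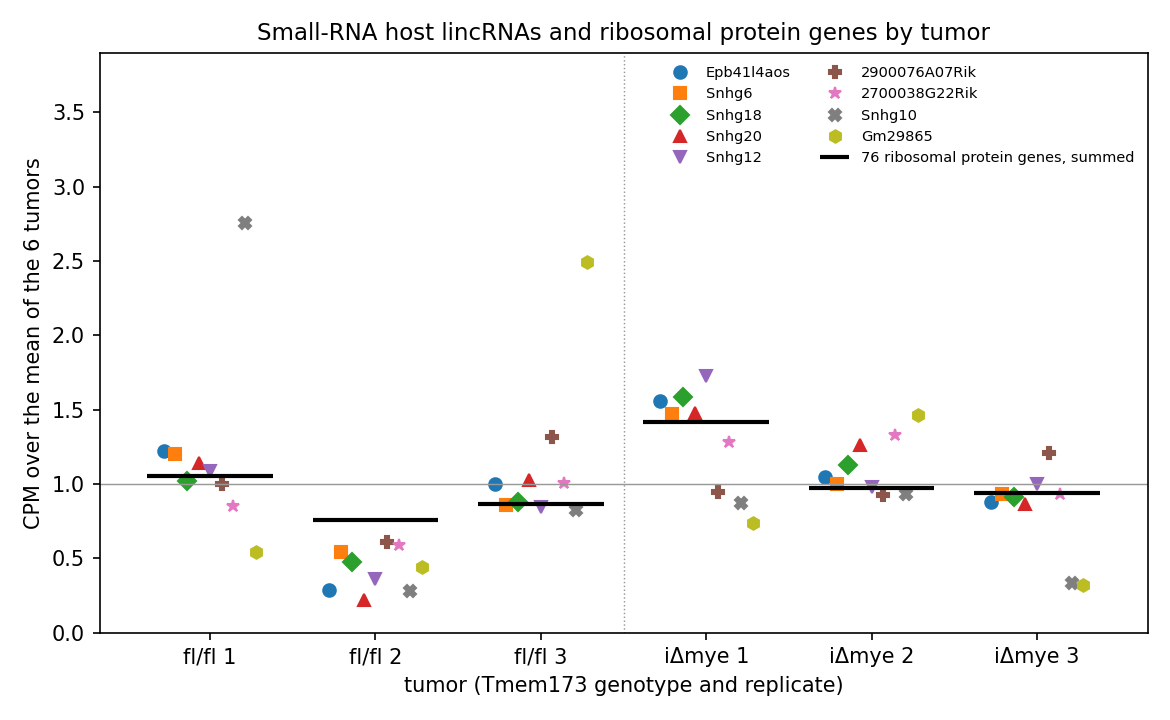
CPM of the 9 small-RNA host lincRNAs in each tumor, divided by the gene's mean over the 6 tumors (points), with the summed CPM of 76 ribosomal protein genes on the same scale (black bars). In Tmem173fl/fl replicate 2 the hosts lie between 0.220 and 0.607, below the bar of the ribosomal protein genes.

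The miRNA hosts shared part of this pattern. Of 6 that hold miRNA genes only, 5 (AL805899.1, Mir17hg, 4833445I07Rik, E130102H24Rik and 6720427I07Rik) were lowest in Tmem173fl/fl replicate 2. Mir17hg, which carries the growth-linked miR-17 to miR-92 cluster shown above, had 368, 189 and 430 counts against 393, 276 and 429 (log2 fold change 0.16, SE 0.30). 6720427I07Rik, the host of let-7d, had 80, 18 and 89 against 84, 59 and 61 (0.13, SE 0.52). Without Tmem173fl/fl replicate 2, the median log2 fold change of the 6 went from 0.09 to -0.31 and none was above 0.

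Mir142hg, whose miRNA is a hallmark of blood cells, was the exception. It had 66, 7 and 7 counts in the Tmem173fl/fl tumors and 47, 34 and 7 in the Tmem173iΔmye tumors. The lowest count, 7, was shared by Tmem173fl/fl replicates 2 and 3 and Tmem173iΔmye replicate 3. The exception thus rests on scaling to library size alone. Both groups held high and low tumors, and the log2 fold change was 0.10 (SE 0.98). Summed markers of B and plasma cells were 128, 35.7 and 37.0 FPKM against 159, 84.2 and 96.4. They were highest in the 2 tumors with most Mir142hg counts, though in the reverse order. Tmem173iΔmye replicate 3, with 7 counts of Mir142hg, was above replicate 2, with 34. The sum did not follow most genes of this list. Of its 6 genes, 2 had a log2 fold change above 0, and the median was -0.66. T and NK cell markers summed to 10.1, 6.06 and 6.41 FPKM against 18.1, 13.0 and 9.04. The part of blood cells in Mir142hg was not tested.

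Over the whole set, Tmem173fl/fl replicate 2 was the lowest tumor for 100 lincRNAs (40.0%), against 27.1% of all genes tested, and replicate 3 of the same group was the highest for 83 (33.2%), against 18.1%. Expressed as CPM, 23 lincRNAs (9.2%) in Tmem173fl/fl replicate 2 were below the mean of the other two Tmem173fl/fl tumors by more than 1 on the log2 scale, against 4.25% of all genes, and the median difference was -0.29, against -0.02. The set was not low throughout in that tumor, since Malat1, Gm26917, Gm10076 and 2900097C17Rik were highest there among the Tmem173fl/fl tumors. The spread within groups was also larger for the lincRNAs, with a median SD of 0.32 on the log2(CPM + 1) scale against 0.22 for 9235 coding genes with 1 to 20 FPKM. These coding genes were chosen by FPKM and not by counts. The lincRNAs had a median of 297.5 counts summed over all tumors. Their median length was 1263 bases, against 4194 for all coding genes tested. The part of low counts in the wider spread and in the share of 9.2% was not tested. What set Tmem173fl/fl replicate 2 apart was not tested.

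**Figure D4:**
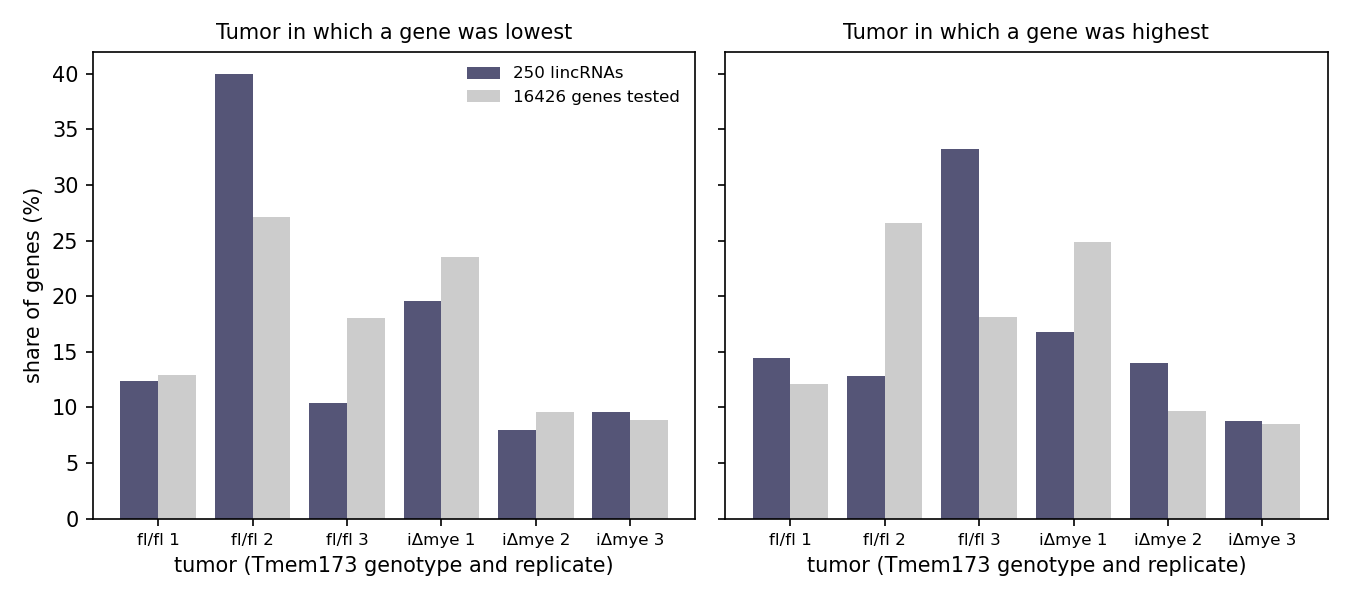
Share of genes whose lowest (left) or highest (right) CPM fell in each tumor, for the 250 lincRNAs (dark) and all 16426 genes tested (grey). Tmem173fl/fl replicate 2 holds the lowest value of 40.0% of the lincRNAs and 27.1% of all genes, and Tmem173fl/fl replicate 3 the highest value of 33.2% and 18.1%.

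LincRNAs that start back to back with a coding gene, within 5 kb and on the other strand, formed a class of 38. Of these, 23 were lowest in Tmem173fl/fl replicate 2 and 23 highest in Tmem173fl/fl replicate 3. Their median log2 fold change was -0.14, with 12 above 0 and 4 with an unadjusted p under 0.05 (10.5%, against 6.14% of all genes tested), and it was -0.43 without Tmem173fl/fl replicate 2. Hottip, transcribed from the 5′ end of the Hoxa cluster that marks the distal gut, had 217, 106 and 236 counts against 174, 133 and 111 (-0.42, SE 0.32). Its partner Hoxa13 had 1158, 822 and 1318 against 767, 823 and 801 (-0.47, unadjusted p = 0.0203 from edgeR). Bvht, a lincRNA known from heart development and the other gene of the developmental list in the set, was at -0.39 (SE 0.31).

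The 39 lincRNAs that overlap a coding gene and hold no small RNA had a median log2 fold change of -0.03 and 5 unadjusted p-values under 0.05 (12.8%, against 6.14% of all genes tested). The 158 in no class had a median of -0.01 and 13 such p-values (8.23%). For the 49 that share exonic bases with another gene, the median was -0.10 with 2 such p-values (4.08%), and for the other 201 it was 0.00 with 20 (9.95%). The differences between classes were not tested.

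Fold changes of lincRNAs and of the nearest coding gene were only loosely related. For 107 lincRNAs with a tested coding gene within 5 kb, 59 pairs had the same sign. Across these pairs, which share libraries and may share reads, the correlation was 0.13, and it was 0.29 for the 40 pairs on the same strand and -0.02 for the 67 on opposite strands. Within 50 kb, 92 of 166 pairs had the same sign (correlation 0.18).

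Single pairs went both ways. The following 2 were chosen after their values were seen. AC163032.1 lies 369 bases from Sp4, a Sp-family transcription factor gene, on the same strand. It had 93, 125 and 119 counts against 55, 73 and 81, and Sp4 had 194, 314 and 218 against 134, 162 and 163, log2 fold changes of -0.70 and -0.68. Gm43251, 1712 bases from Prkg2, a cGMP-dependent kinase gene, was at -0.82 and Prkg2 at -0.69. Reads that run on from one gene into the next on the same strand cannot be told apart from separate transcripts.

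The largest differences within 5 kb were in weakly expressed lincRNAs. Lncbate1 was at 1.64 and Zfhx3, the transcription factor gene around it, at -0.42. C430042M11Rik was at 0.23 and Haao, an enzyme gene of tryptophan breakdown, at -1.21, with 62 counts or fewer for Haao in each tumor. Gm13780 was at 1.02 and Phf21a at -0.11, Snhg10 at -0.84 and Glrx5 at 0.28, and Gm45096 at -0.94 and Cebpg at 0.14. Leaving out Tmem173fl/fl replicate 1, in which it had 40 of its counts, put Snhg10 at 0.34.

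**Figure D5:**
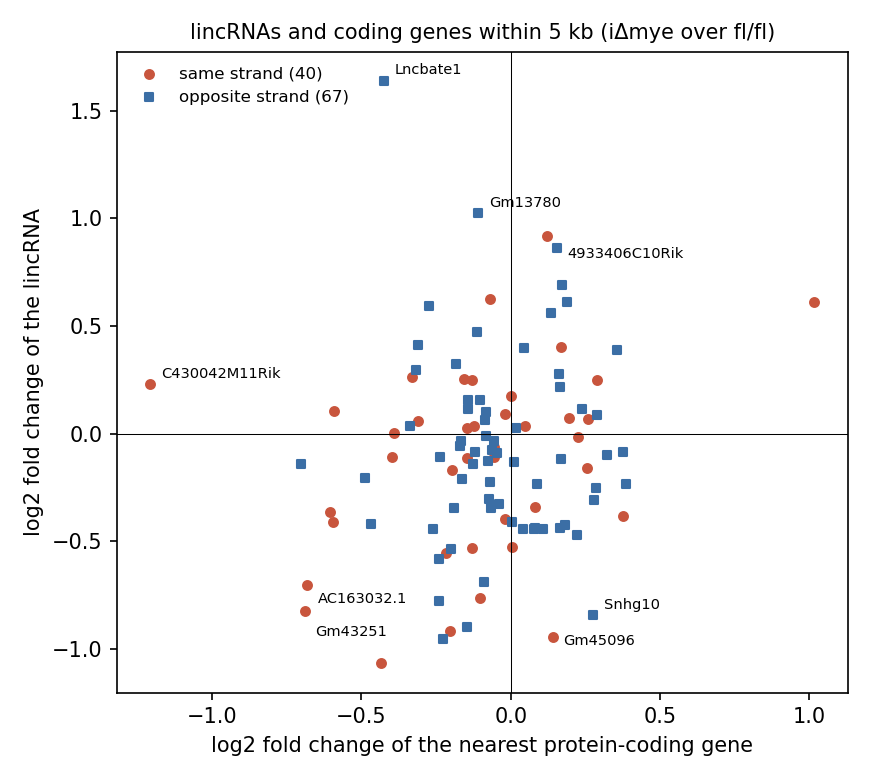
Log2 fold change (Tmem173iΔmye over Tmem173fl/fl) of the nearest protein-coding gene within 5 kb against that of the lincRNA, for 107 pairs on the same (red circles, 40) or opposite strand (blue squares, 67). AC163032.1 and Gm43251 lie near the values of their neighbours, while Lncbate1 and C430042M11Rik lie far from theirs.

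Few lincRNAs followed the interferon-response genes from tumor to tumor. The mean log2(CPM + 1) of 22 such genes was 4.37, 3.84 and 3.41 in the Tmem173fl/fl tumors and 6.26, 4.45 and 4.89 in the Tmem173iΔmye tumors. Tumors of one group lay above those of the other, with Tmem173iΔmye replicate 1 far above the rest. As a description over 6 tumors, 2 lincRNAs (0.8%) correlated with this level above 0.9, against 3.73% of all genes tested. The 5 closest were Gm36107 (0.94), 5033406O09Rik (0.91), Platr27 (0.89), BC049987 (0.88) and 4930461G14Rik (0.86). Of these, Gm36107, Platr27 and BC049987 passed the level limit only through the Tmem173iΔmye group, in which the interferon level was also higher. Their correlations are thus a description rather than support.

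The 5 highest correlations rest in part on Tmem173iΔmye replicate 1. Without it, an alternative added after the data were seen, they were 0.74, 0.70, 0.71, 0.41 and 0.39 over 5 tumors, and that of AW112010 went from 0.85 to 0.35. The order changed as well. Gm36107 ranked 13 of 250 without that tumor, and the highest values were those of Gm19710 (0.996, against 0.81 over 6 tumors), Gm26901 (0.92, against 0.545) and Gm32219 (0.91, against 0.73), which are named here after their values were seen. 5033406O09Rik had 129, 99 and 96 counts against 171, 117 and 111, with groups that overlapped, and a log2 fold change of 0.28 (SE 0.27).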

How the data were processed

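RNA-seq of 3 Tmem173fl/fl and 3 Tmem173iΔmye tumors was analysed from one table. It holds raw counts for each gene and the FPKM values that the authors made from them, both as deposited, and also their own fold changes and p-values, which were not used. The submitters' processing notes name CASAVA 1.8, fastp, HISAT2 2.0.5, featureCounts 1.5.0-p3, DESeq2 1.20.0 and GRCm38. Poly(A) RNA was used with a kit that is not stated to mark strand.

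The test was edgeR's quasi-likelihood F test (version 4.0.16 in R 4.3.3, TMM scaling, group as the only term, Benjamini-Hochberg adjustment) over 16426 genes that reached 0.5 FPKM on average. The SE was obtained from the log2 fold change and the root of F. A pseudocount of 1 was used on log scales. Alternatives were DESeq2 1.42.0, limma 3.58.1 (log2(FPKM + 1) or voom), other scaling and filters, the replicate block, sex read from Xist and Y-linked counts, and leaving out each tumor. On simulated counts for this comparison (16424 genes), edgeR called 99 genes, 92 of them right, with 22% of changes of 1 and 70% of changes of 2 (log2) recovered.

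Coordinates of 245 of the 250 lincRNAs matched GENCODE M21, and 111 had a RefSeq start region. Classes were taken in the order small-RNA host, miRNA host, overlap, divergent start. Copies were searched with blastn 2.17.0. Named genes were the 10 of highest level, those past the study's threshold without overlap (up to 8 a direction, lowest p), up to 4 of each list and host class, 3 on each side of the level limit, and 5 each for likeness to interferon genes and difference from the neighbour. The members and lists were chosen with earlier results of these data known.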

Additional observations from a re-analysis of the deposited data

How the results depend on the processing

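Of 35 named lincRNAs under 14 alternatives each (490 values), 468 kept their direction and their side of an adjusted p of 0.05. Only AL805899.2 went past it, with DESeq2 (0.0231).

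With sex as a covariate, 2900097C17Rik was at 0.019, Neat1 at -0.11, Mir142hg at -0.47 and C430042M11Rik at -0.033. Leaving out one tumor gave ranges of -0.12 to 0.093 for 2900097C17Rik, -0.33 to 0.25 for 4833445I07Rik, -0.29 to 0.43 for 6720427I07Rik, -0.71 to 0.51 for AL805899.1, -0.092 to 1.27 for AW112010, -0.028 to 0.50 for C430042M11Rik, -0.41 to 2.04 for Mir142hg, -0.10 to 0.35 for Mir17hg, -0.37 to 0.37 for Neat1, -1.31 to 0.34 for Snhg10 and -0.030 to 0.20 for Tmem250-ps.

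Same-numbered tumors deviated from their group means with correlations of 0.315, 0.008 and 0.154 across genes. The mean was 0.159, against -0.079 for differently numbered tumors. By Xist and Y-linked counts, sex was the same in replicates 1 and in replicates 3 and differed in replicates 2. These values do not settle whether the numbers mark pairs, and the main fit had group as its only term. With the replicate block, 21 lincRNAs had an unadjusted p under 0.05 (8.4%, against 9.16% of all genes tested), 4 were past the study's threshold higher (1.6% against 1.53%) and 2 lower (0.8% against 0.767%), and AL805899.1 was at 0.012.

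Past the threshold, 7 lincRNAs were higher with edgeR (2.8%, against 1.26% of all genes tested). The limma fit on log2(FPKM + 1) gave 1, against 79 of all 16426 genes tested. With sex as a covariate in edgeR, 4 were higher (1.6% against 0.749%), and 14 had an unadjusted p under 0.05 (5.6% against 3.37%). Leaving out one tumor gave 3 to 12 higher and 1 to 5 lower, against 126 to 437 and 92 to 199 of all genes tested. The medians were then -0.43 to 0.027 for divergent starts and -0.052 to 0.10 for lincRNAs in no class. Without Neat1 the lincRNAs took 0.331 and 0.314% of the counts of Tmem173fl/fl and Tmem173iΔmye tumors. Of the 9 lincRNAs past the threshold, 9 remained with other scaling, 8 with DESeq2 and 3 with limma on log2(FPKM + 1). Leaving out one tumor left 6 to 16 past the threshold, and 3 to 8 of the 9 remained: 7 without Tmem173fl/fl replicate 1, 5 without its replicate 2, 3 without its replicate 3, and 4, 7 and 8 without Tmem173iΔmye replicates 1, 2 and 3.

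Over all genes tested, the adjusted p was under 0.05 for 6 genes without the filter, 27 with DESeq2 and 0 to 1 leaving out one tumor. The unadjusted p was under 0.05 for 1741 without the filter, 553 with sex and 535 to 1665 leaving out one tumor. Past the threshold, 475, 79 and 123 genes were higher and 397, 57 and 88 lower without the filter, with limma on log2(FPKM + 1) and with sex, 83 were lower at a mean FPKM of at least 1, and leaving out one tumor gave 126 to 437 and 92 to 199. The causes were not tested. Of the 9 lincRNAs past the threshold, 7 stayed under 100 counts in every tumor, and depth was not varied.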

Other observations

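Of 177 autosomal lincRNAs tested with a mean under 1 FPKM, 6 had an unadjusted p under 0.05 (3.39%, against 6.14% of all genes tested), all 6 were past the study's threshold (against 2.12%), and 5 of them were lower in Tmem173iΔmye tumors, with 0 at an adjusted p under 0.05 by edgeR. This is a description, and no difference from the lincRNAs above the limit was tested. Gm14396 had 3, 26 and 18 counts in the Tmem173fl/fl tumors and 0, 0 and 1 in the Tmem173iΔmye tumors. 4930480K23Rik had 54, 35 and 98 counts against 17, 22 and 15, a log2 fold change of -1.77 (SE 0.43; edgeR, adjusted p = 0.742). Both were chosen as those with the lowest p-values. By their counts, both reached the limit of 0.5 FPKM for testing only through the Tmem173fl/fl group, in which they were high. Their differences are thus a description rather than support.

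H19, the imprinted growth-linked lincRNA left out of the set, had 737, 558 and 78 counts against 2193, 487 and 1011, with overlapping groups and a log2 fold change of 1.38 (SE 0.79; edgeR, adjusted p = 0.742).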
